A study of Mus musculus with 11 samples.

Results

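The collagens, laminins and integrins were followed in hippocampal RNA of mice given AC-T or saline. Members were chosen by gene name, not by measured change: symbols of collagen chains, laminin chains and integrin subunits, with a mean deposited count of at least 10 over all libraries. Of 17118 genes in the table, 67 carried such a name and 63 passed the mean count. These were 35 collagen genes, 9 laminin genes, 18 integrin genes and Col4a3bp, which encodes a ceramide transfer protein and only shares the name; it is left out of the counts that follow. Col17a1, a transmembrane collagen, was just inside the limit with a mean of 15.2 counts. Lamb3, a laminin beta chain, and Itgb3, an integrin beta subunit, were just outside it with 8.18 each, and Itga11 and Itgad were lower.

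The series deals with cognition, gut and microbiome of mice under chemotherapy. In AC-T the anthracycline doxorubicin (which damages DNA) and the alkylating drug cyclophosphamide are given first, and paclitaxel, a drug that freezes microtubules, is given afterwards. Female C57/BL6 mice (C57/BL6J in the genotype label), aged 12 weeks, had 8 weekly intraperitoneal injections. The AC-T mice (501, 502, 503, 600 and 602; n = 5) received doxorubicin at 2 mg/kg with cyclophosphamide at 50 mg/kg in 4 of them and paclitaxel at 5 mg/kg in the next 4, and the controls (201, 202, 203, 300, 301 and 302; n = 6) received 0.9% saline. All libraries carry a 1-month label. Each is labelled with its own mouse, and the labels name no genetic alteration. Treatment is the difference that the labels state, but the first digit of the mouse number also differs between the groups.

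Collagens are triple-helical proteins of the extracellular matrix. Type IV collagens form the network of basement membranes together with laminins, which are cross-shaped trimers of an alpha, a beta and a gamma chain, while fibrillar collagens build the fibres of connective tissue. Integrins are alpha-beta pairs in the cell membrane that bind these proteins and couple them to the cytoskeleton. In the brain most of this matrix lies along blood vessels, in the meninges and in the choroid plexus, and neurons and glia also make a few collagens and several integrins.

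Library totals were between 23.4 and 32.1 M (mega) counts. Saline 300 stood apart: Xist, the RNA of the inactive X chromosome, was listed at 0 there and at 13057 or more counts in the other 10 libraries, although all mice are labelled female. It also had the lowest neocortical and the highest choroid plexus marker level. The 12 hippocampal marker genes examined were above 0 in all libraries. After AC-T 7 of them had a log2 fold change above 0 and 5 below, and 2, Mpped1 and Neurod6, rose. Markers of neighbouring regions were present and moved with treatment. The mean log2 CPM (normalised read counts, scaled to a common library size) of 16 markers of thalamus and habenula was 4.68 ± 0.29 after AC-T and 5.74 ± 0.28 after saline (SD, n = 5 and 6; 2-sided exact permutation p = 0.00216, the smallest that splits of 5 against 6 can give; adjusted over 10 marker lists, 0.0216). It ran from 4.31 to 5.08 and from 5.31 to 6.00, so the groups did not overlap. Of these 16 genes 14 fell, their summed level was from 752 to 1087 CPM against 1416 to 2114 CPM, and Gbx2 was at 0 in 1 library. That of 11 neocortical markers was 4.55 ± 0.086 and 3.64 ± 0.49 (exact permutation p = 0.00433, adjusted 0.0216), with 6 genes higher and 1 lower. For the 12 hippocampal markers it was 6.09 ± 0.19 and 5.72 ± 0.34 and did not pass (exact permutation p = 0.0671, adjusted 0.152). Saline 201, 202 and 203 had the lowest hippocampal level of all libraries, at 5.45, 5.31 and 5.51. Saline 300, 301 and 302 were at 6.02, 6.00 and 6.06, and the AC-T libraries between 5.75 and 6.20. What part the hippocampal level has in the members' changes was not tested. All 10 marker lists were chosen with earlier results of these data known, so their p values are not independent of those results. Because the thalamic level and the neocortical level each separate the groups completely, treatment and the share of either tissue in a punch cannot be told apart. In bulk tissue fewer cells of a type and less RNA per cell cannot be told apart either.

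After AC-T 2 collagen genes rose and 3 collagen genes and 1 integrin gene fell, while no laminin gene passed the test. Col6a1, a chain of the beaded filaments of type VI collagen, and Col19a1, a fibril-associated collagen that hippocampal interneurons make, were the 2 that rose. Col15a1, Col16a1 and Col26a1 fell, and so did Itga3, the alpha subunit of a laminin receptor. Changes were tested gene by gene with edgeR's quasi-likelihood test across 15353 genes, with a Benjamini-Hochberg adjusted p under 0.05 as the threshold. The 6 genes were 11.1% of the 54 members tested, beside 8.47% of all genes tested. By direction, 3.70% of the members rose beside 4.89% of all genes, and 7.41% fell beside 3.58%. The median log2 fold change of the 54 members, AC-T minus saline, was -0.11, and over all genes tested it was -0.003. The members' median was between -0.12 and -0.13 under the other scalings tried. With libraries left out in turn it was between -0.13 and -0.04, the latter without saline 300, and it was -0.06 without saline 202 and -0.07 without saline 302. It was -0.01 without series 5 (AC-T 501, 502 and 503), and 0.01, 0.02 and -0.02 with the thalamic, endothelial and fibroblast marker levels as covariates. The members' fold changes ran from -0.74 to 0.95, with 20 above 0 and 34 below. An unadjusted p under 0.05 was reached by 10 members (18.5%) beside 24.9% of all genes. The groups did not overlap for 2 members (3.70%), beside 7.52% of all genes.

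**Figure D1:**
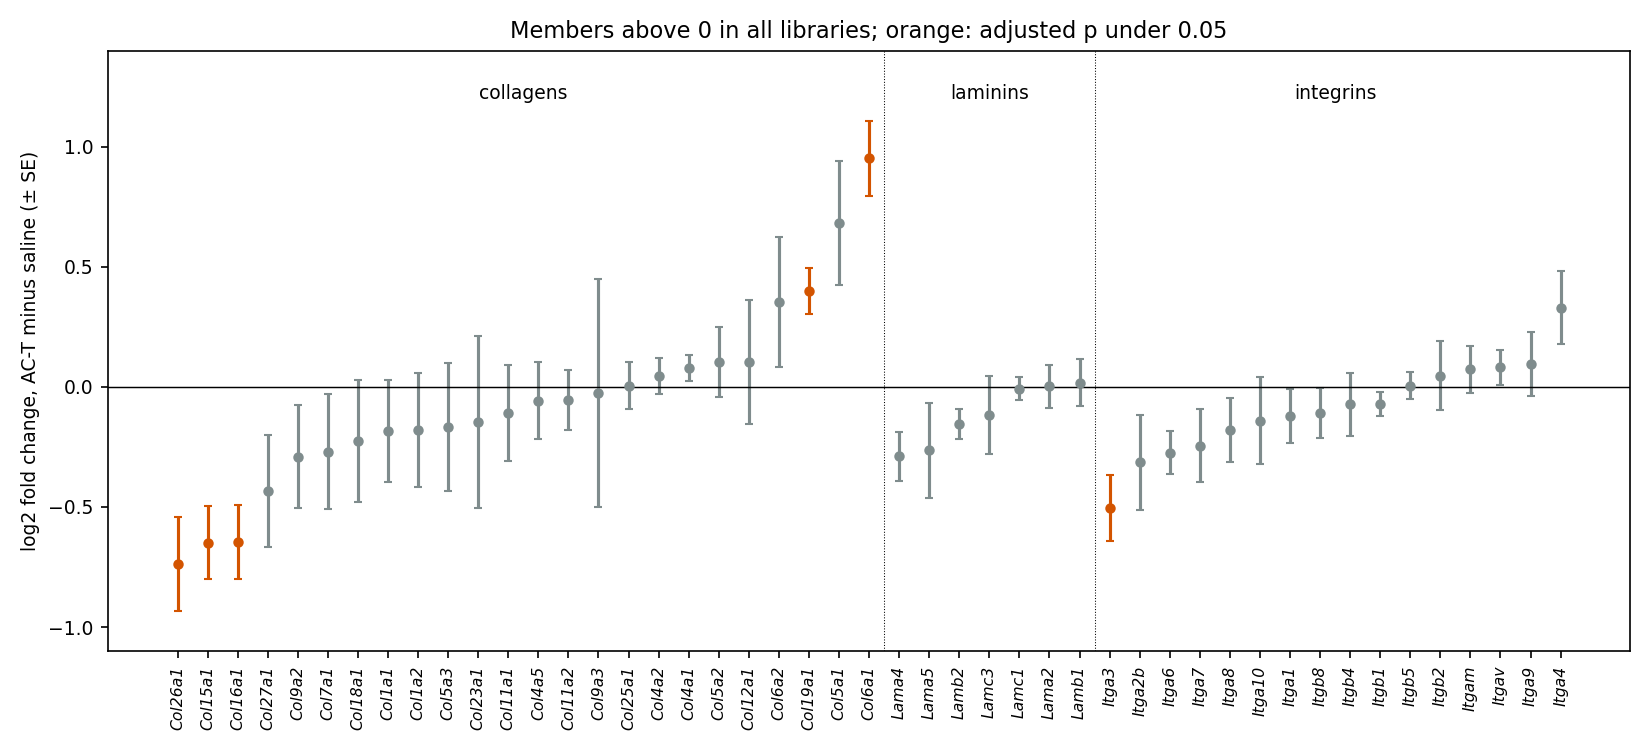
Log2 fold change after AC-T relative to saline (bars, SE) of the 47 members with a value above 0 in all libraries, ordered within collagens, laminins and integrins. Orange points passed an adjusted p under 0.05; Col6a1 is the highest at 0.95 and Col26a1 the lowest at -0.74, and the laminins are grey throughout.

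Type VI collagen is assembled from 3 different chains, here represented by Col6a1, Col6a2, Col6a3 and Col6a4. Col6a1 (ENSMUSG00000001119) was at 33.2, 26.8, 37.2, 42.7 and 36.5 CPM in AC-T mice 501, 502, 503, 600 and 602. In saline mice 201, 202, 203, 300, 301 and 302 it was at 16.1, 25.5, 16.0, 13.7, 20.9 and 17.2 CPM. All AC-T libraries lay above all saline libraries, with AC-T 502 and saline 202 closest to each other. The mean went from 18.2 ± 4.28 to 35.3 ± 5.83 CPM (SD, n = 6 and 5), 1.94 times the saline level (log2 0.95 ± 0.16 SE; adjusted p = 0.00595). Col6a1 passed the test with each of the 11 libraries left out in turn, without saline 300 among them (0.87 ± 0.15, adjusted p = 0.0126). It did not pass with the thalamic marker level (0.76 ± 0.37, adjusted p = 0.999) or the endothelial marker level (0.76 ± 0.23, adjusted p = 0.298) as a covariate. Over all genes 1 passed in the thalamic fit, and 4 rose and 2 fell in the endothelial fit, beside 1301 without a covariate. The thalamic level separates the groups completely, so that fit cannot tell it from treatment. Not passing in these fits therefore says little about Col6a1.

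Col6a2, whose chain assembles with that of Col6a1, did not pass (log2 0.35 ± 0.27 SE; adjusted p = 0.470). Its AC-T values were 8.82, 10.6, 10.7, 10.5 and 8.45 CPM, and its saline values 5.33, 14.7, 9.47, 5.07, 7.01 and 4.65 CPM. The 5 AC-T libraries lay close together and inside the wide saline range, whose top was saline 202. Across the 11 libraries log2 CPM of Col6a1 and Col6a2 correlated with Pearson r 0.658 (permutation p = 0.0312; adjusted over 5 pairs, 0.0389) and Spearman rho 0.573 (permutation p = 0.0700; adjusted 0.0875). Without the 2 libraries farthest from the median of Col6a1 r was 0.549. Within the 6 saline libraries r was 0.734 (unadjusted permutation p = 0.0970) and rho 0.429. The log2 ratio of Col6a1 to Col6a2 within a library, a measure chosen after the values were seen, was 1.83 ± 0.30 after AC-T and 1.34 ± 0.46 after saline (SD, n = 5 and 6). That difference of 0.49 did not pass (2-sided exact permutation p = 0.0823).

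Col6a3, the third chain of the common trimer, could not be tested. Its listed value was 0 in each of the 5 AC-T libraries, 0 in saline 203 and 300, and 5.28, 4.48, 4.46 and 3.25 CPM in saline 201, 202, 301 and 302. A listed 0 was read as a value under an unknown limit and not as a count of 0, because among members with a listed 0 the lowest value above it was 30 counts; what set such values to 0 is not given in the sources used here. Itgad, below the mean count limit, had 19 counts in AC-T 602 and 0 elsewhere. No fold change is therefore given. Col6a4, a chain related to Col6a3, was at 0 in 7 libraries and between 4.10 and 9.25 CPM in the others, which came from both treatments.

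**Figure D2:**
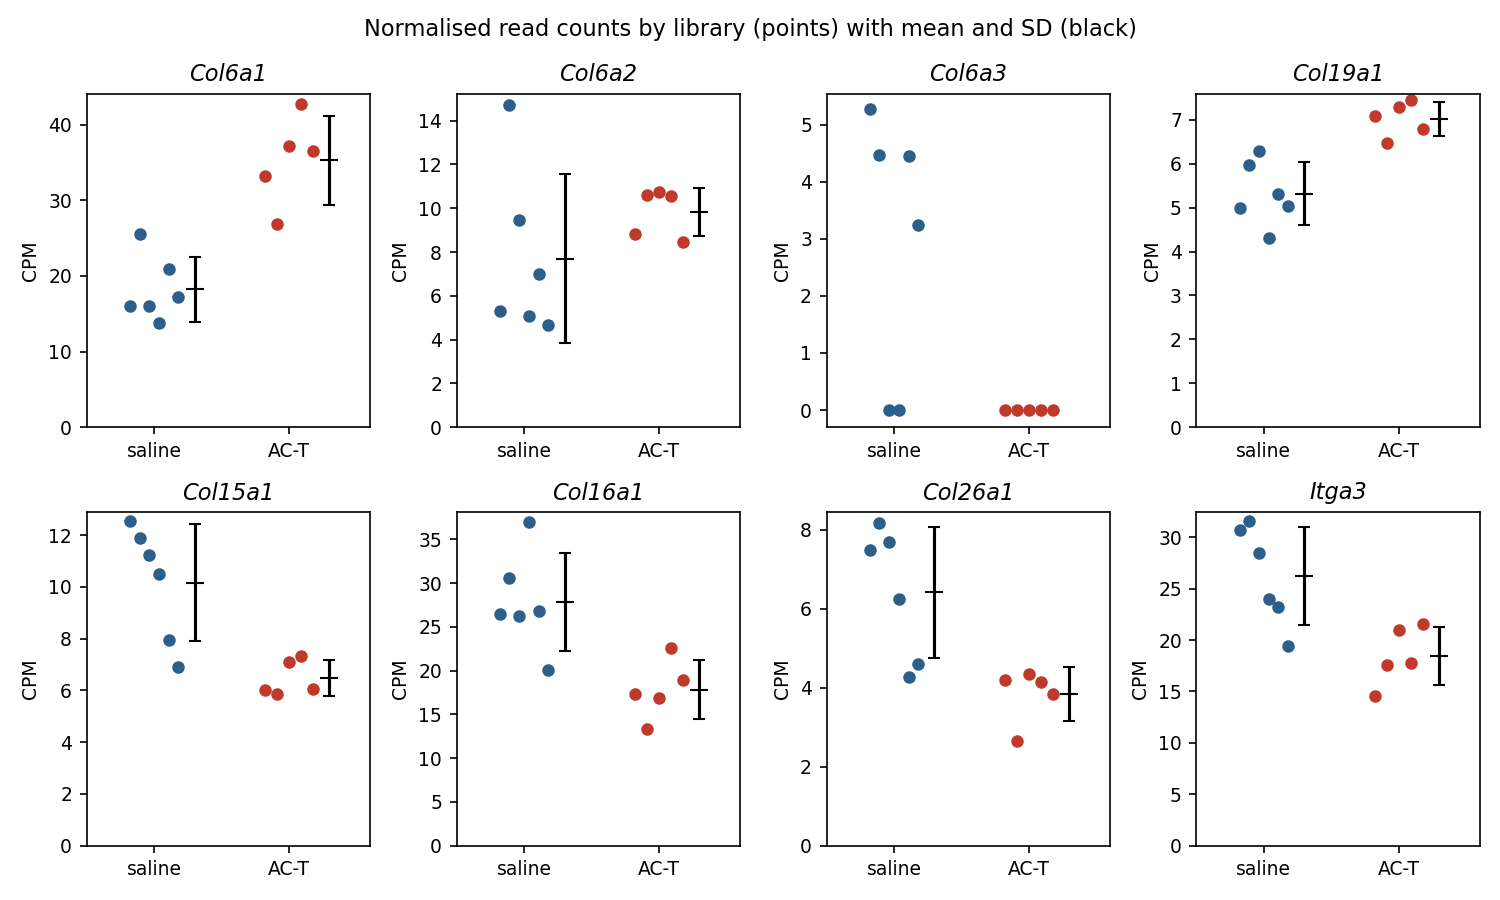
CPM of the 6 genes past the threshold and of Col6a2 and Col6a3 by library, saline in blue and AC-T in red. Black marks are the mean and SD, left out for Col6a3, whose 5 AC-T values are all listed as 0; the groups do not overlap for Col6a1 and Col19a1.

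Fibril-associated collagens sit on the surface of larger fibrils and link them to other matrix proteins, and 1 of the 6 tested rose and 1 fell. Col19a1 (ENSMUSG00000026141) was at 7.09, 6.47, 7.28, 7.44 and 6.79 CPM after AC-T. After saline it was at 4.99, 5.98, 6.29, 4.32, 5.32 and 5.03 CPM. The groups did not overlap, although AC-T 502 and saline 203 were near each other. The mean rose from 5.32 ± 0.718 to 7.02 ± 0.390 CPM (log2 0.40 ± 0.095 SE; adjusted p = 0.0278). The call was lost without AC-T 503, 600 or 602 or saline 301 (adjusted p from 0.0503 to 0.0623), and remained without saline 300 (0.34 ± 0.086, adjusted p = 0.0479).

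Col16a1 (ENSMUSG00000040690), whose product binds collagen-binding integrins, moved the opposite way. Its values were 17.4, 13.4, 16.9, 22.6 and 19.0 CPM after AC-T and 26.5, 30.6, 26.3, 37.0, 26.8 and 20.1 CPM after saline. Saline 302 was the 1 saline library within the AC-T range, and saline 300 was the highest. The mean fell from 27.9 ± 5.58 to 17.8 ± 3.35 CPM (log2 -0.64 ± 0.15 SE; adjusted p = 0.0280). The call was lost without AC-T 501, 502, 503 or 602 or saline 202 (adjusted p from 0.0539 to 0.0688), and remained without saline 300 (-0.55 ± 0.14, adjusted p = 0.0457). Among the others Col12a1 and Col9a2 did not pass, with log2 fold changes of 0.11 and -0.29. Col20a1 did not pass either: it was listed at 0 in AC-T 502, its fold change of -0.32 ± 0.63 rested on that library, and without it the value was 0.00 ± 0.17. Col9a3 is described with the choroid plexus markers.

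Col15a1 (ENSMUSG00000028339) and Col18a1 are the multiplexins, proteoglycan collagens placed next to the basement membranes of vessels. Col15a1 was at 6.00, 5.85, 7.09, 7.34 and 6.07 CPM after AC-T and at 12.6, 11.9, 11.2, 10.5, 7.94 and 6.91 CPM after saline. Of the saline libraries 302 alone lay within the AC-T range and 301 just above it, and the 3 mice with numbers from 201 to 203 were the highest. The mean fell from 10.2 ± 2.26 to 6.47 ± 0.691 CPM (log2 -0.65 ± 0.15 SE; adjusted p = 0.0255). The call was lost without AC-T 501, 502 or 602 or saline 202 or 203 (adjusted p from 0.0509 to 0.0703), and remained without saline 300 (-0.65 ± 0.16, adjusted p = 0.0463). Col18a1, whose cleavage releases endostatin, was at 9.68 ± 2.52 and 11.3 ± 4.21 CPM and did not pass (adjusted p = 0.640).

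Col26a1 (ENSMUSG00000004415), a secreted collagen with short triple-helical stretches, was at 4.20, 2.66, 4.36, 4.15 and 3.85 CPM after AC-T. After saline it was at 7.48, 8.18, 7.68, 6.26, 4.28 and 4.61 CPM. Saline 301 lay within the AC-T range and saline 302 near it, while the other 4 were clearly above. The mean fell from 6.42 ± 1.65 to 3.84 ± 0.684 CPM (log2 -0.74 ± 0.19 SE; adjusted p = 0.0390). This was the largest change downward among the members tested, and the call remained only without saline 301 (adjusted p = 0.0239) or saline 302 (0.0271) when libraries were left out in turn, and was 0.0534 to 0.0918 without each other library, saline 300 included (0.0648).

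The sequences just upstream of the start sites of Col6a1 and Col19a1, which rose, and of Col15a1 and Col16a1, which fell, are shown because each of these genes has 1 entry in the RefSeq promoter table (GRCm38.p6). They cover the 250 bases before the start, 5′ to 3′ on the strand of the gene. Capitals mark matches to a GC box (GGGCGG or its complement CCGCCC) or a CCAAT box (CCAAT or ATTGG).
Col6a1, chr10:76726045-76726294, minus strand: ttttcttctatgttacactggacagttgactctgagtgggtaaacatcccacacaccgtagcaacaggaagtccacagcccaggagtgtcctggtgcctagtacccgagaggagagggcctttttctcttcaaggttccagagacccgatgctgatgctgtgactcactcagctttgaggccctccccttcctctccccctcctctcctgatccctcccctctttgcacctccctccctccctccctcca
Col19a1, chr1:24587438-24587687, minus strand: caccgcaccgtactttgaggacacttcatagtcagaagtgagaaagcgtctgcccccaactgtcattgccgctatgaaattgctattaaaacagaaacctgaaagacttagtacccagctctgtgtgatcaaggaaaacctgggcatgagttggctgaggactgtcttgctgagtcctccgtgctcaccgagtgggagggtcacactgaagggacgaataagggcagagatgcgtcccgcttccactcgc
Col15a1, chr4:47207762-47208011, plus strand: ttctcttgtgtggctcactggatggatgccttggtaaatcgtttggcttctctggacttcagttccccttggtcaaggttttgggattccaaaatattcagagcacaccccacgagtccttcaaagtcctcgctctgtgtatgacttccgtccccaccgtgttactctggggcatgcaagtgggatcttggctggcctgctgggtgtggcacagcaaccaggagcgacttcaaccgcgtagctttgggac
Col16a1, chr4:130047590-130047839, plus strand: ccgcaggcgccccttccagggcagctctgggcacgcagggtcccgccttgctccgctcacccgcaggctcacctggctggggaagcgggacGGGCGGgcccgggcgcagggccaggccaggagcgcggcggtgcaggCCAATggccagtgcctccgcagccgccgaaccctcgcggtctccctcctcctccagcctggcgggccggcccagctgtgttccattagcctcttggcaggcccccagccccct
Col16a1 had 1 GC box and 1 CCAAT box, and the other 3 windows had no match to these, nor to TATAAA or TTTATA. Over 32851 windows of the same length there, 32.7% held a GC box, 33.8% a CCAAT box and 12.4% a TATA box. Of the 63 members, Col4a3bp included, 47 had at least 1 window and 16 had none. Of their 50 windows 29 held a GC box, 16 a CCAAT box and 4 a TATA box. These are matches of letters only.

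None of the 9 fibrillar collagens tested passed in edgeR, DESeq2 or limma-voom, and 1, Col5a1, had an unadjusted p under 0.05 in edgeR. Over all genes DESeq2 called 16.7% and limma-voom 8.69%. Col5a1, a chain of the type V collagen that starts type I fibrils, was at 23.2, 22.7, 29.3, 20.2 and 21.0 CPM after AC-T. After saline it was at 10.8, 25.5, 19.4, 8.35, 13.2 and 9.86 CPM. Every saline library but 202 lay below every AC-T library. Its mean was 23.3 ± 3.60 CPM against 14.5 ± 6.62 (log2 0.68 ± 0.26 SE; adjusted p = 0.125), and without saline 202 it passed (0.92 ± 0.20, adjusted p = 0.0320). Col1a1 and Col1a2, the chains of type I collagen, did not pass, with log2 fold changes of -0.18 ± 0.21 and -0.18 ± 0.24.

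Col1a1 and Col1a2 varied together between mice. Both were highest in saline 202, at 21.0 and 32.02 CPM, and both were at or near their lowest in AC-T 600 and 602, at 9.25 and 9.70 CPM for Col1a1 and 14.1 and 12.8 CPM for Col1a2. Their log2 CPM correlated across the 11 libraries with Pearson r 0.882 (permutation p = 9e-05, adjusted over 5 pairs 0.00045) and Spearman rho 0.918 (0.00022, adjusted 0.0011). Without the 2 libraries farthest from the median of Col1a1 r was 0.789, and within the saline group it was 0.933 (unadjusted permutation p = 0.00133). Col11a2, a fibrillar chain, had the highest level per length of its group and did not pass (41.3 ± 7.90 against 42.9 ± 5.35 CPM; adjusted p = 0.839).

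Of the type IV collagens of the basement membrane, Col4a1 and Col4a2 varied little between mice. Col4a1 was between 38.9 and 48.3 CPM after AC-T and between 39.6 and 44.2 CPM after saline, and Col4a2 between 49.5 and 67.3 CPM and between 52.9 and 63.0 CPM. Their log2 fold changes were 0.08 ± 0.054 and 0.05 ± 0.074 (adjusted p = 0.419 and 0.757). Col4a5 varied more, from 6.04 to 8.60 CPM after AC-T and from 4.84 to 10.2 CPM after saline (log2 -0.06 ± 0.16 SE; adjusted p = 0.874). None of the 3 tested passed or had an unadjusted p under 0.05 in edgeR, DESeq2 or limma-voom. The chains of Col4a1 and Col4a2 form 1 trimer, and their levels correlated with Pearson r 0.652 (permutation p = 0.0295, adjusted 0.0389) and Spearman rho 0.664 (0.0310, adjusted 0.0776). Without the 2 libraries farthest from the median of Col4a1 r was 0.321, and within the saline group it was 0.504 (unadjusted permutation p = 0.316). Leaving out the farthest libraries narrows the range and can lower r by itself, so it does not show what the relation rested on. Col4a4 was above 0 only in AC-T 600 and saline 300, at 6.62 and 6.73 CPM.

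The transmembrane collagens did not pass either. Col25a1, a neuronal membrane collagen whose shed part was found in amyloid plaques, was at 55.4 ± 5.38 CPM after AC-T and 55.2 ± 7.86 CPM after saline (log2 0.01 ± 0.096 SE; adjusted p = 0.981). Col23a1 was at 11.004 and 11.4 CPM in AC-T 502 and 503 and at 14.1 and 12.2 CPM in saline 202 and 203, and between 4.18 and 6.66 CPM in the other 7 libraries. High and low libraries of Col23a1 thus occurred in both treatments. Col13a1 (log2 -0.34 ± 0.69, adjusted p = 0.820) was listed at 0 in AC-T 600.

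Of the 8 laminin genes tested, 0 passed in edgeR and 2 had an unadjusted p under 0.05, Lama4 and Lamb2. DESeq2 called 1 of them, Lama4 (log2 -0.30 ± 0.11, adjusted p = 0.0385), and limma-voom 0. The laminins' median log2 fold change was -0.06. Lama4, the alpha chain typical of vessel walls, was at 5.24, 5.50, 5.49, 4.74 and 4.13 CPM after AC-T and at 5.33, 7.10, 6.71, 6.08, 5.60 and 5.98 CPM after saline. The AC-T values were the lower ones, with saline 201 among them (log2 -0.29 ± 0.10 SE; adjusted p = 0.104). Lamb2, a beta chain of vascular and synaptic basement membranes, was at 30.9 ± 2.35 and 34.3 ± 2.61 CPM (log2 -0.15 ± 0.064 SE; adjusted p = 0.158).

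Lamb1 and Lamc1, chains that occur together in many laminin trimers, were at 27.9 ± 3.52 against 27.6 ± 3.19 CPM and at 32.4 ± 1.27 against 32.5 ± 2.07 CPM. Lamc1 was the steadiest member, with a highest library 1.19 times its lowest. No correlation of Lamb1 with Lamc1 passed across libraries (Pearson r 0.0148, permutation p = 0.966, the same after adjustment, and Spearman rho -0.0455, permutation p = 0.903; 0.190 for r without the 2 farthest libraries). Lama5, an alpha chain of epithelial and vascular basement membranes, was at 19.2 ± 6.29 and 23.1 ± 4.49 CPM (adjusted p = 0.458), and Lamc3 at 7.08 ± 0.776 and 7.68 ± 2.04 CPM (adjusted p = 0.719).

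Among the integrin receptors 1 of 17 tested passed, Itga3, and 1 further, Itga6, had an unadjusted p under 0.05. The median log2 fold change of the integrins was -0.11. Itga3 (ENSMUSG00000001507), which pairs with Itgb1 as a laminin receptor, was at 14.5, 17.6, 21.0, 17.7 and 21.5 CPM after AC-T. After saline it was at 30.7, 31.6, 28.5, 24.0, 23.2 and 19.4 CPM. Saline 302 was the 1 saline library within the AC-T range, and saline 201, 202 and 203 were the highest. The mean fell from 26.2 ± 4.78 to 18.5 ± 2.84 CPM (log2 -0.50 ± 0.14 SE; adjusted p = 0.0440). The call was kept only without saline 302 (adjusted p = 0.0192) and was 0.0511 to 0.106 without each other library, saline 300 included (0.0585).

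The remaining laminin-binding alpha subunits had lower means after AC-T without passing. Itga6, which pairs with Itgb1 or Itgb4, was at 28.5, 26.6, 29.5, 22.1 and 24.7 CPM after AC-T and at 29.6, 26.0, 33.2, 34.7, 33.4 and 33.5 CPM after saline. Saline 202 lay within the AC-T range and the other 5 above it (log2 -0.27 ± 0.089 SE; adjusted p = 0.0789), and without saline 202 it passed (-0.32 ± 0.077, adjusted p = 0.0382). Itga7, the form best known from muscle and vessel walls, was at 27.5 ± 6.15 and 32.7 ± 4.99 CPM (adjusted p = 0.358). Itga6 and Itgb1 correlated with Pearson r 0.647 (permutation p = 0.0311, adjusted 0.0389) and Spearman rho 0.609 (0.0526, adjusted 0.0875). Without the 2 libraries farthest from the median of Itga6 r was 0.360, and within the saline group 0.309 (unadjusted permutation p = 0.515). Both use fewer libraries, and leaving out the farthest narrows the range, so what the relation rested on was not shown.

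Of the 5 beta subunits tested, which pair with the alpha subunits above, 0 passed and 0 had an unadjusted p under 0.05 in edgeR, DESeq2 or limma-voom. Itgb1, the common partner of laminin and collagen receptors, was at 68.5 ± 4.19 and 71.9 ± 3.45 CPM (log2 -0.07 ± 0.049 SE; adjusted p = 0.410). Itgb5, a partner of Itgav, was at 52.7 ± 3.56 and 52.5 ± 3.37 CPM (adjusted p = 0.966). Itgav itself, the alpha subunit of several RGD-binding receptors, was at 52.5 ± 3.50 and 49.6 ± 5.05 CPM (adjusted p = 0.535).

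Itga4, a fibronectin and Vcam1 receptor subunit of leukocytes, had log2 0.33 ± 0.15 (adjusted p = 0.202), with overlapping groups. Itgam, a subunit of the complement receptor of microglia, was at 25.1 ± 3.41 and 23.8 ± 2.73 CPM (adjusted p = 0.699), and the mean log2 CPM of 13 microglial markers did not pass (exact permutation p = 0.706). The collagen-binding subunits Itga1 and Itga10 had log2 fold changes of -0.12 and -0.14, and Itga2b, best known from platelets, -0.31 ± 0.20 (adjusted p = 0.369). Itgbl1, an integrin-like protein, was at 0 in 8 libraries and could not be tested.

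Levels can be compared between genes only per length of transcript, here the longest annotated transcript, in CPM per kilobase (mean ± SD over all 11 libraries). Integrin beta subunits were at the top: Itgb1 was at 18.4 ± 1.06 and Itgb5 at 16.0 ± 0.999, and their library ranges overlapped. Col9a3 followed at 12.8 ± 7.91, a spread that reaches past its neighbours on both sides. Itgb8, an astroglial subunit that with Itgav activates latent transforming growth factor, was at 9.28 ± 1.25 and did not differ beyond its spread from Col4a2 at 9.05 ± 0.795 or Col25a1 at 8.25 ± 0.973. The highest laminin was Lamb2 at 5.82 ± 0.530. Over the 63 members, Col4a3bp included, the level ran from 0.0926 (Col17a1) to 18.4, with a median of 1.77. The order depends on the length taken: by the median transcript length Itgb5 ranked 1, Lamb2 2, Col4a1 3 and Itgb1 6.

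**Figure D3:**
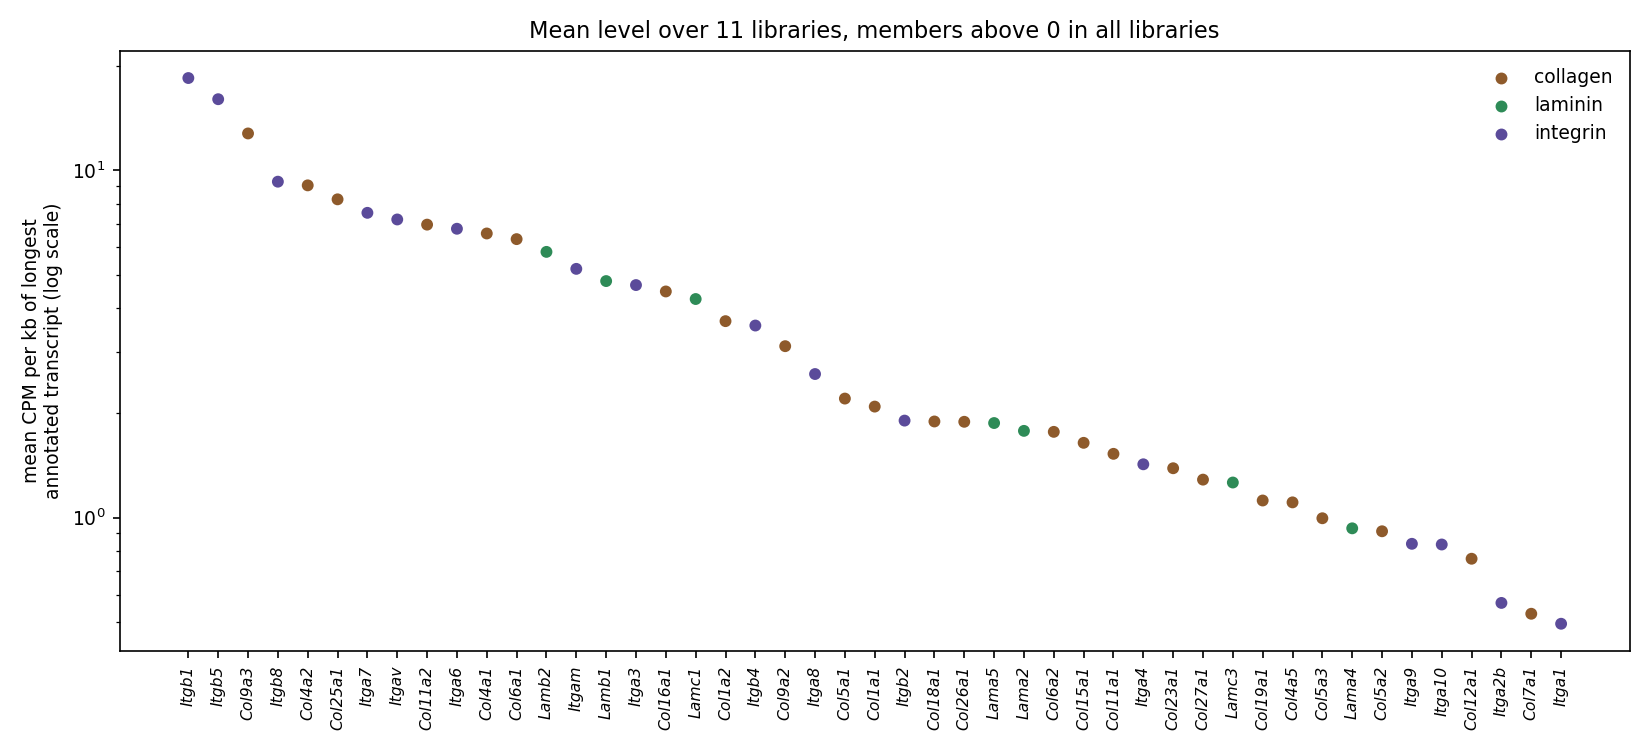
Mean level over the 11 libraries, in CPM per kilobase of the longest annotated transcript on a log axis, of the 47 members above 0 in all libraries. Itgb1 (18.4) and Itgb5 (16.0) lead, and collagens occur from the top to the bottom of the range.

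The levels of 3 collagens followed choroid plexus markers from library to library. Ttr, the most abundant choroid plexus transcript, was at 57.4, 1249, 1283, 5169 and 2109 CPM in AC-T 501, 502, 503, 600 and 602, and at 1155, 501, 3.96, 5268, 79.1 and 2778 CPM in the saline mice. Col9a3, a chain of the cartilage collagen type IX, was at 17.6, 23.9, 31.8, 75.6 and 43.5 CPM after AC-T and at 30.5, 27.7, 15.2, 88.4, 21.3 and 52.4 CPM after saline. It was highest in saline 300 and AC-T 600, where Ttr was highest, and lowest in saline 203, where Ttr was lowest.

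Col8a2, a chain of the hexagonal networks of type VIII collagen, was listed at 0 in AC-T 501, saline 203 and saline 301, the 3 libraries lowest in Ttr. It was at 10.1, 8.72, 30.0 and 16.8 CPM in the other AC-T libraries and at 6.89, 8.33, 29.8 and 16.9 CPM in the other saline libraries. Col8a1, the second chain of that network, was at 0 in the same 3 libraries and reached 19.6 CPM in AC-T 600 and 25.1 CPM in saline 300.

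In a comparison chosen after values were seen, 54 members were set against the mean log2 CPM of 10 choroid plexus markers and of 13 fibroblast markers, 108 relations in all. With the choroid plexus markers Pearson r and Spearman rho were 0.978 and 0.991 for Col8a1, 0.970 and 0.964 for Col8a2, and 0.900 and 0.973 for Col9a3. The 3 permutation p values adjusted over 108 were 0.00108, 0.00162 and 0.00648 for r, and 0.00108 for each rho. No other member passed by either measure. Without the 2 libraries farthest from the median r was 0.959, 0.938 and 0.857, and within the 6 saline libraries 0.973, 0.958 and 0.941. In Col8a1 and Col8a2 the listed zeros enter as low values.

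Choroid plexus markers did not pass between treatments (mean log2 CPM 4.42 ± 2.21 and 3.57 ± 2.66; exact permutation p = 0.589), with Kcne2, Slc4a5 and Aqp1 at 0 in 3 libraries each, nor did these collagens, with log2 fold changes of 0.26 ± 1.09 for Col8a1, 0.35 ± 1.08 for Col8a2 and -0.03 ± 0.47 for Col9a3.

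**Figure D4:**
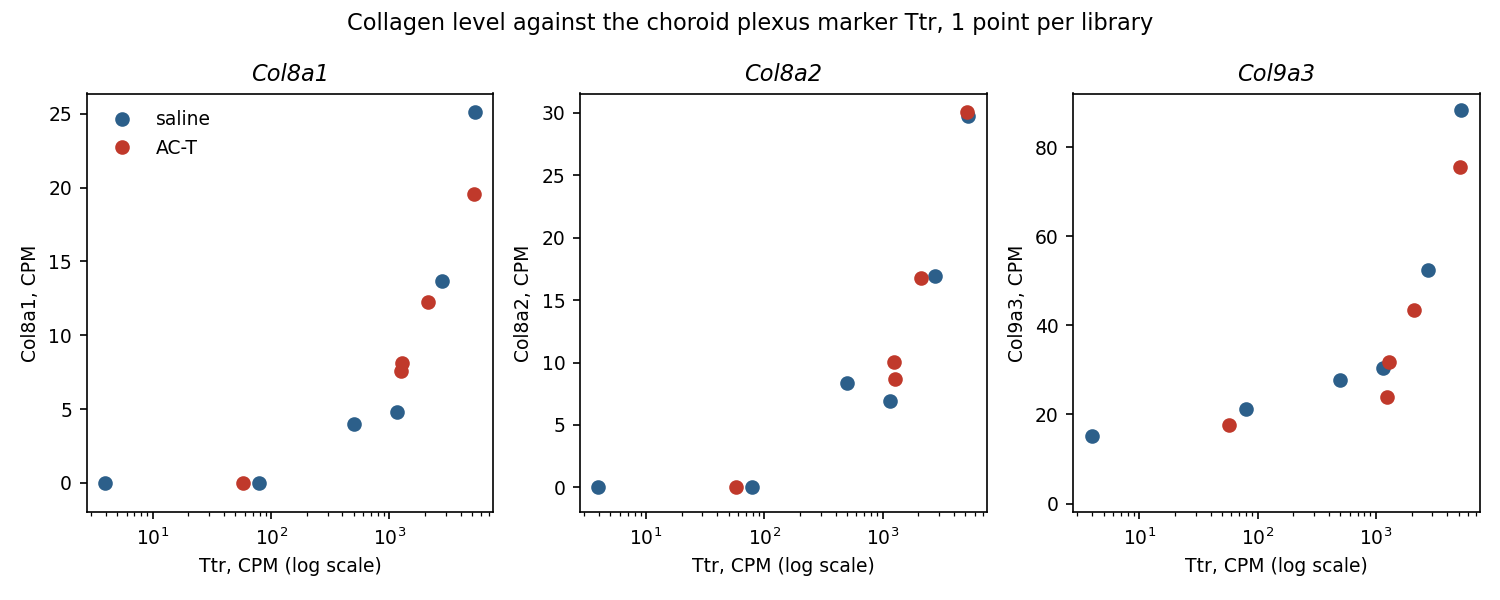
CPM of Col8a1, Col8a2 and Col9a3 against CPM of Ttr (log axis), 1 point per library, saline in blue and AC-T in red. The points rise together in both treatments, and saline 300 and AC-T 600 are the 2 at the upper right of each panel.

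With the markers of meningeal and perivascular fibroblasts, Col1a2 passed by both measures (Pearson r 0.924, adjusted 0.00648; Spearman rho 0.882, adjusted 0.0243; r 0.858 without 2 libraries). Col1a1 and Col9a2 passed by r alone, with 0.817 and 0.805 (permutation p adjusted 0.0248 and 0.0349), and Col3a1, a fibrillar collagen of vessel walls, by rho alone at 0.855 (adjusted 0.0369). Col3a1 was listed at 0 in AC-T 600, AC-T 602 and saline 301, which enter as its lowest ranks. Without the 2 farthest libraries r was 0.611 for Col1a1 and 0.580 for Col9a2. The 13 fibroblast markers were above 0 in all libraries, with a summed level from 264 to 480 CPM after AC-T and from 232 to 590 CPM after saline, and their mean log2 CPM did not pass (4.09 ± 0.28 and 4.26 ± 0.43; exact permutation p = 0.465). With that level as a covariate Col6a1, Col19a1 and Col15a1 passed and Col16a1, Col26a1 and Itga3 did not (adjusted p = 0.0525, 0.0721 and 0.0724).

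Endothelial markers were lower after AC-T. Over 14 of them the mean log2 CPM was lower with AC-T, at 4.69 ± 0.094 against 4.86 ± 0.065 in controls (SD, n = 5 and 6; exact permutation p = 0.0108, adjusted 0.0361). The summed level of the 14 was from 424 to 501 CPM and from 485 to 553 CPM, none was at 0, and 1 of the 14, Pecam1, fell. Pericyte and smooth muscle markers did not pass (3.81 ± 0.14 and 3.90 ± 0.15; exact permutation p = 0.288), with 1 of 13, Notch3, lower. Of 11 astrocyte markers 3 fell (Aqp4, Slc4a4 and S100b), and their mean log2 CPM was 7.56 ± 0.20 and 7.76 ± 0.12 (exact permutation p = 0.0758, adjusted 0.152). With the endothelial level as a covariate 0 members passed in edgeR and 6 members had an unadjusted p under 0.05. The log2 fold changes were then 0.34 for Col19a1, -0.60 for Col15a1, -0.51 for Col16a1, -0.56 for Col26a1 and -0.55 for Itga3 (adjusted p from 0.436 to 0.573). With the thalamic level 0 members passed and 1 had an unadjusted p under 0.05. Col19a1 was then at 0.43 ± 0.23 and Col16a1 at -0.39 ± 0.37, while Col15a1 was at -0.09 ± 0.33, Itga3 at -0.06 ± 0.31 and Col26a1 at 0.11 ± 0.38 (adjusted p = 0.999 for each). Over all genes 6 and 1 passed in those fits. What part these tissues have in the members' changes was not tested.

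Mouse numbers begin with 2 or 3 in the saline group and with 5 or 6 in the AC-T group, here called series. The deposited column names carry the same digits. The meaning of the digits is not given in the labels, and each series lies within a single treatment. In a model with 4 group means Col12a1, a fibril-associated collagen of tendon and skin, was lower in saline series 3 than in series 2 (log2 -0.997 ± 0.19 SE; adjusted p = 0.0491), from 10.2, 10.3 and 13.4 CPM to 4.61, 6.22 and 6.14 CPM. It was the 1 member of 54 called there, where 1.03% of all genes were called. Between AC-T series 6 and 5 edgeR called 0 members and 0.117% of all genes.

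Set against saline series 2, AC-T gave 1 higher and 5 lower members, with 11.4% of all genes called, and against saline series 3 it gave 3 higher and 1 lower, with 7.25% of all genes called. Both contrasts share the 5 AC-T libraries. The 5 lower ones were Col15a1, Col26a1, Itga3, Lama4 and Col3a1, of which Col3a1 was listed at 0 in both libraries of AC-T series 6, so that no fold change is given for it. Col6a1 passed in both, with log2 0.90 ± 0.19 and 1.05 ± 0.19 (adjusted p = 0.018 and 0.021). Col15a1 was at -0.87 ± 0.13 against series 2 and at -0.38 ± 0.14 against series 3 (adjusted p = 0.005 and 0.113), and Itga3 at -0.70 ± 0.12 and -0.25 ± 0.12 (0.007 and 0.213). Col5a1 was at 0.29 ± 0.24 and 1.12 ± 0.25 (0.493 and 0.036). Col16a1 was at -0.62 ± 0.17 against each series (0.051 and 0.061). Against series 3 the higher members were Col6a1, Col19a1 and Col5a1, and the lower one was Itga6. Itga6 was at -0.21 ± 0.076 against series 2 and at -0.40 ± 0.075 against series 3 (0.111 and 0.022). With series as a random effect, where libraries of 1 series correlated by 0.215, Col6a1 alone of the 54 members passed (0.98 ± 0.19, adjusted p = 0.0263).

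**Figure D5:**
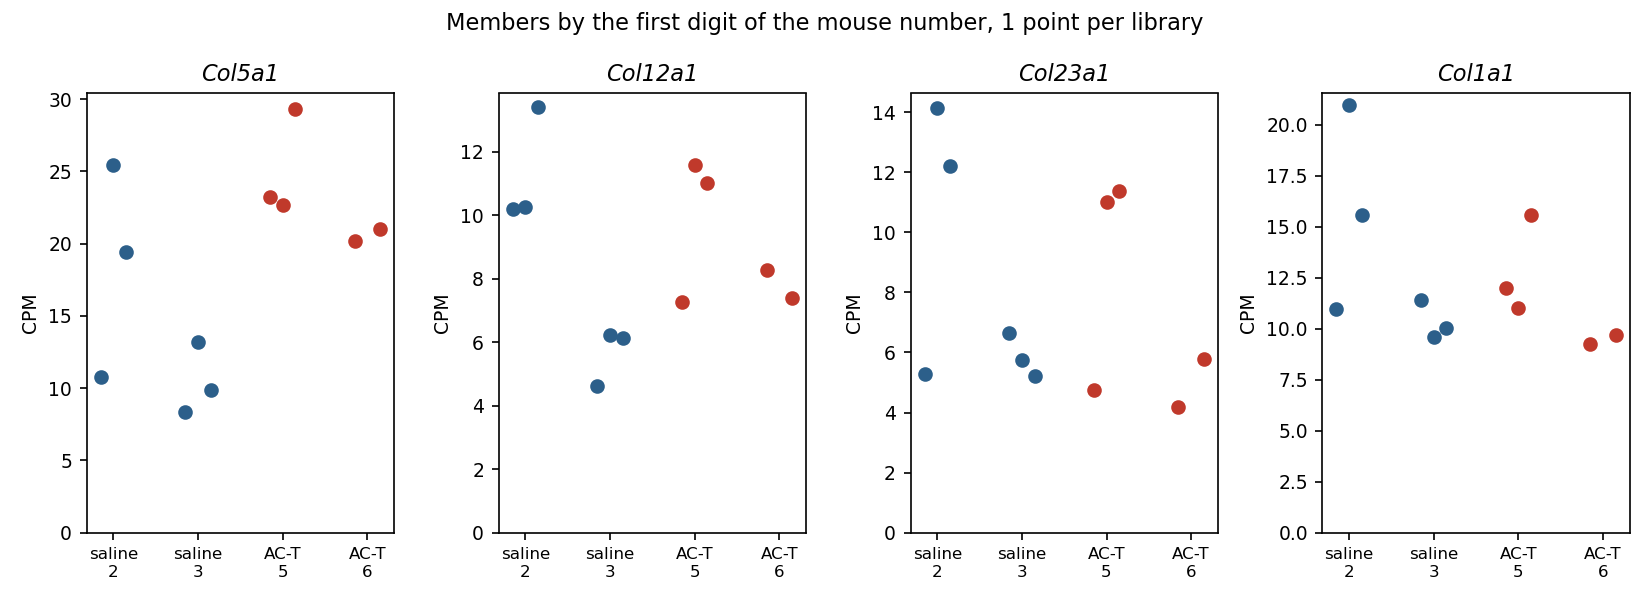
CPM by library of Col5a1, Col12a1, Col23a1 and Col1a1, grouped by treatment and the first digit of the mouse number, saline in blue and AC-T in red. Saline series 3 is below saline series 2 throughout for Col12a1, at 4.61 to 6.22 against 10.2 to 13.4 CPM, while the series overlap for Col23a1.

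Genes that make, anchor, sense or cut this matrix were followed as 5 lists. Over all genes tested, edgeR called 4.89% higher and 3.58% lower, and 24.9% had an unadjusted p under 0.05. Of 23 genes of collagen biosynthesis and processing 0 passed in edgeR, 7 had an unadjusted p under 0.05, and DESeq2 called 6, all lower, where limma-voom called 0. DESeq2 called 7.71% of all genes lower. The median log2 fold change of the 23 genes in edgeR was -0.12. Of 22 basement membrane partners and other matrix glycoproteins 1 fell and 0 rose. That gene was Sparc, a collagen-binding glycoprotein of vessels and glia, which was between 378 and 515 CPM after AC-T and between 633 and 856 CPM after saline. All its saline libraries lay above all its AC-T libraries (723 ± 91.8 to 433 ± 55.2 CPM; log2 -0.74 ± 0.10 SE; adjusted p = 0.00276). Sparc passed with each library left out and with series as a random effect (adjusted p = 0.0141). With the endothelial level as a covariate it was at -0.60 ± 0.15 and with the thalamic level at -0.38 ± 0.21, and did not pass (adjusted p = 0.244 and 0.999). Few genes of any kind passed in those fits.

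Of 22 integrin adaptors and adhesion kinases 2 rose and 1 fell. Ptk2, the focal adhesion kinase, rose from 80.2 ± 6.60 to 98.4 ± 5.59 CPM (log2 0.29 ± 0.061 SE; adjusted p = 0.0164), and its neuronal relative Ptk2b rose by log2 0.46 ± 0.12 (adjusted p = 0.0445). Parvb, a link between integrin-linked kinase and actin, fell by log2 0.27 (adjusted p = 0.0414). The call of Ptk2b was kept only without AC-T 503, saline 201 or saline 302 (adjusted p from 0.0542 to 0.108 without each other library), and that of Parvb only without AC-T 602 or saline 302 (0.0511 to 0.0903 otherwise). Of 11 other receptors of collagen and laminin 1 fell, the neuronal syndecan Sdc3 (log2 -0.19 ± 0.049; adjusted p = 0.0375). Its call was kept only without AC-T 503, saline 201 or saline 302 (adjusted p from 0.0565 to 0.0836 without each other library). Dag1, the dystroglycan that binds laminin, was at 98.2 ± 3.62 and 98.8 ± 4.41 CPM (adjusted p = 0.917).

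Of 13 matrix proteases and inhibitors 1 rose and 1 fell, while 8 had an unadjusted p under 0.05 and DESeq2 called 1 higher and 6 lower. Over all genes 24.9% had such a p in edgeR, and DESeq2 called 16.7% in either direction and 7.71% lower. Mmp17, a membrane-anchored metalloproteinase, rose from 158 ± 20.5 to 214 ± 15.6 CPM (log2 0.44 ± 0.088 SE; adjusted p = 0.0141). Mmp14, the membrane collagenase that activates Mmp2, fell from 18.7 ± 1.51 to 13.8 ± 1.66 CPM (log2 -0.43 ± 0.083 SE; adjusted p = 0.0124). For both genes the AC-T and saline libraries did not overlap. Ptk2, Mmp14 and Mmp17 passed with each library left out and did not pass with series as a random effect (adjusted p = 0.0599, 0.0618 and 0.0555), and neither did Ptk2b, Parvb and Sdc3 (0.139, 0.140 and 0.119).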

How the data were processed

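Frozen brains were sliced and the hippocampus was sampled by a 0.2 mm punch before stranded mRNA sequencing, per the labels' protocols. The submitters' processing notes name Dragen 4.3.6, FastQC 0.11.9, Salmon 1.9.0 and the build GRCm39. The annotation release and the step that wrote the table are not given in the sources used here. The values deposited by the authors are expected counts: a fraction is present in 13.7 to 14.7% of the values of a library, and 9.64% are 0. They were rounded to whole numbers. Salmon divides reads shared by similar genes, which touches paralogous chains. Of the 6 animals per treatment that the series text states, 5 with AC-T and 6 with saline were analysed here, and 0 columns were left unmapped.

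CPM were computed from the counts with edgeR 4.0.16 in R 4.3.3 (trimmed mean of M values). The 2-sided quasi-likelihood test used filterByExpr with a minimum count of 10, which kept 15353 genes (biological coefficient of variation 0.174), and Benjamini-Hochberg adjustment over all of them. The filter left out Col4a4, Col6a3, Col6a4, Col24a1, Col2a1, Col17a1, Itgbl1 and Lama3. A prior count of 2 was used in log2 CPM. P-values measure the spread between mice, and series and treatment are confounded. Marker levels were compared by exact permutation tests and correlations by 100000 permutations (SciPy 1.17.1). Permutations over all libraries did not keep the treatments apart, so a difference between treatments shared by both measures enters r and its p. Transcript lengths came from a GRCm38 annotation, matched by Ensembl gene ID. The model was tested on simulated data.

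Named are all members past the threshold, in each role the member with the highest level per length and the member not past it with the smallest p, the partner pairs (Col4a3 was not analysed here), those beside the mean count limit, and up to 2 genes past the threshold per matrix list. Parvb, Dag1, Col20a1, Col4a5, Col6a3, Col6a4, Itga11, Itgad, Col23a1, Col12a1, Col8a1, Col3a1, Col9a3, Itgb5 and Itgb8 were added for their levels, spread or relations, after their values were seen. Members and lists were chosen with earlier results of these data known. Alternatives were other scaling factors (RLE, upper quartile, library totals), other low-count filters, a robust fit, DESeq2 1.42.0, limma-voom (limma 3.58.1), unrounded values, an adjusted p under 0.1, omission of each library or series, series as a random effect, and 3 marker levels as covariates.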

Additional observations from a re-analysis of the deposited data

Results flagged for a closer look

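The value of Col5a3, a type V collagen chain, in saline 300 was 11.6 CPM, while the other saline libraries were between 4.51 and 6.02 CPM. The gap to the nearest library was 0.788 of the range of the group. Saline 300 is also the library with Xist at 0 and with the highest Ttr of its group. Col5a3 did not pass between treatments (adjusted p = 0.757). Itgb8, the astroglial integrin subunit, was at 65.2 CPM in AC-T 502, while the other AC-T libraries were between 76.1 and 78.8 CPM, a gap of 0.802 of the range. The saline libraries 201 and 202 were at 69.2 and 64.9 CPM, so the value lies within what was seen in controls. In all 96 groups of libraries were examined, those of Col4a3bp included, and chance alone sets apart about 1 in 20. No cause was tested.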

How the results depend on the processing

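The counts of members past the threshold, 2 higher and 4 lower, depended on which libraries were used. Of the 11 fits that each left out 1 library, Col6a1 passed in 11 and Col19a1 in 7. Col15a1 and Col16a1 passed in 6 each, Col26a1 in 2 and Itga3 in 1. With libraries left out in turn the higher count was 1 to 3, the lower count 0 to 4 and the count over all genes 625 to 1229, beside 1301. Without series 2 the counts were 4 higher and 0 lower, with 549 of all genes. Without series 3 there were 1 higher and 4 lower, with 1206 genes. Without series 5 there were 1 and 0 with 317 genes, and without series 6 there were 1 and 1 with 409. With series as a random effect 1 was higher and 0 lower, with 293 genes. With the thalamic level as a covariate 0 and 0 members and 1 gene passed, and with the endothelial level 0 and 0 members and 6 genes; 442 and 1546 genes then had an unadjusted p under 0.05. With the fibroblast level 1 member was lower. DESeq2 called 2559 of all genes, and 2295 had an adjusted p under 0.1. Of the calls over all genes 57.7% were higher, 47.2% with upper-quartile factors and 47.1% with library totals, which moved the median log2 fold change by no more than 0.03.

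Col6a1 passed in 27 of 29 alternatives, Col19a1 in 19, Col15a1 and Col16a1 in 18 each, Col26a1 in 12 and Itga3 in 10. With the thalamic level Col26a1 changed sign, to 0.11 ± 0.38. Without series 2 Col5a1 (1.15, adjusted p = 0.0180) and Col6a2 (0.82, adjusted p = 0.0302) passed. With library totals and with DESeq2 Itga6 passed (adjusted p = 0.0426 and 0.0140). The cause of these differences was not tested. No paired analysis was possible because the groups share no mouse number. Low members are limited by the listed zeros, which 15 members had, 7 of them tested.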
